A study of Mus musculus with 2 samples.

Results

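Activated dendritic cells (DC) marked by Ccr7 and Fscn1 were examined in cultures of mouse bone marrow differentiated toward myeloid-derived suppressor cells (MDSC). Of 21035 barcodes that passed the quality limits of at least 1000 unique molecular identifiers (UMIs) and at most 10% mitochondrial UMIs, 163 were selected on having at least 2 UMIs of Ccr7, at least 2 UMIs of Fscn1 and no UMI of the B cell genes Cd79a, Cd79b and Ms4a1. The DMSO library held 68 of them among 9621 barcodes and the DAB library held 95 among 11414. Marrow of female C57BL/6 mice aged 10 weeks was cultured to day 4 under IL-6 (50 ng/mL) plus GM-CSF (50 ng/mL), and the cultures received either 1.5 μM dabrafenib (DAB), a BRAF kinase inhibitor, or an equal volume of its solvent dimethyl sulfoxide (DMSO). The cells were unsorted, the mice carried no transgene or deletion in the labels, and the sources used here do not state how many mice each culture came from. Each condition was 1 single-cell RNA sequencing (scRNA-seq) library of the 10x 5′ kit, so treatment and library cannot be told apart, no difference between them was tested, and all intervals given are 95% intervals that cover counting error only.

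DC take up antigen in tissue, process it and display it on MHC molecules to T cells. On activation they raise the chemokine receptor CCR7, which guides them along CCL19 and CCL21 into lymphatic vessels and lymph nodes, and fascin (Fscn1), which bundles actin into the long processes that give these cells their name. The same state carries T cell costimulatory molecules and, beside them, molecules that restrain T cells, such as IL4I1 and PD-L1. GM-CSF drives bone marrow cells toward DC as well as toward granulocytes and macrophages, so DC are a usual minor product of such cultures.

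The members were deeply covered. The DMSO members had 5006 to 40831 UMIs per barcode, with a median of 19437.5, and the DAB members had 2330 to 65317, with a median of 18993. The medians over all barcodes that passed were 8337 in DMSO and 10587 in DAB. The members expressed a median of 3738 genes in DMSO and 3623 in DAB. The libraries shared 144 barcode sequences after the limits, none of which was a member in both. A doublet score built from simulated pairs of barcodes marked 6 of the 68 DMSO members and 12 of the 95 DAB members. Over all barcodes the marked share was 7.70% and 9.13%. That share was not measured: it was set in advance at 0.8% per 1000 barcodes, and the highest scores were marked. Granulocyte genes made up more than 1% of the UMIs in 3 DMSO members and 8 DAB members, of which 2 and 6 carried a doublet mark.

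Both genes that chose the members spanned a wide range of levels within them. Ccr7 (chr11:99144196-99155077, minus strand, GRCm38) ran per cell from 74.2 to 3648 CPM (UMIs scaled to a total of 1000000) in DMSO, with a median of 900, and from 90.7 to 7337 in DAB, with a median of 1427. Fscn1 (chr5:142960343-142973185, plus strand) ran from 49.0 to 10356 CPM in DMSO, with a median of 557, and from 50.6 to 5972 in DAB, with a median of 887. The ranges overlapped for both genes, and 1 cell held 18.9% of all Fscn1 UMIs of the DMSO members. At the edge of the selection, 12 DMSO and 7 DAB members had exactly 2 UMIs of either gene. Just outside it lay 15 DMSO and 3 DAB barcodes with at least 2 UMIs of Ccr7 and 1 of Fscn1, and a larger set with Ccr7 and no Fscn1. That Fscn1-negative set counted 64 barcodes in DMSO, or 0.665% (0.513 to 0.849), and 15 in DAB, or 0.131% (0.0736 to 0.217). It carried the markers Il4i1 and Ccl22 as well, at 1074 and 1392 CPM in DMSO, against 1088 and 2342 in the members. Its DMSO values were also lower for the lineage factor Irf8 (389 against 887 CPM) and the NF-κB subunit Relb (126 against 295). The maturation antigen Cd83 was lower too (109 against 260). Other genes were higher in this DMSO set than in the members. They included Tnfrsf9 (1557 against 1297 CPM), the chemokine genes Ccl17 (1418 against 1100) and Ccl5 (1313 against 927), and Itgax (170 against 82.1). In DAB the set had Irf8 at 174 CPM against 832 and Tnfrsf9 at 884 against 1197.

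**Figure D1:**
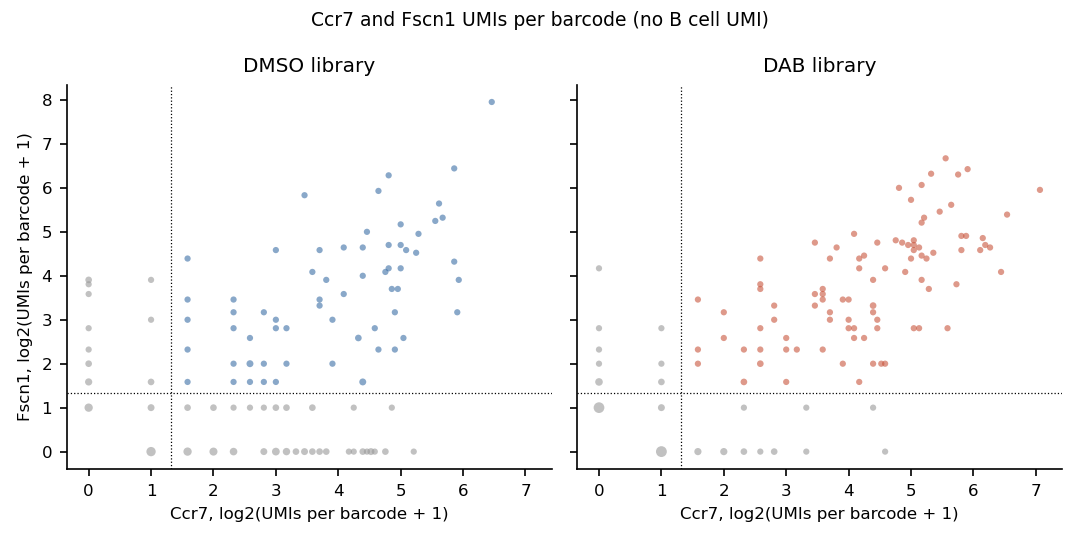
UMIs of Ccr7 (horizontal) and Fscn1 (vertical) per barcode as log2(UMIs + 1), for barcodes with no B cell UMI and at least 1 UMI of either gene. Coloured points above and to the right of the dotted lines are the 68 DMSO and 95 DAB members, point size grows with the number of barcodes at a position, and the row of DMSO barcodes along the base holds Ccr7 without Fscn1.

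The share of activated DC did not differ between the libraries beyond counting error under this selection. They made up 0.707% of DMSO barcodes (0.549 to 0.895, Clopper-Pearson) and 0.832% of DAB barcodes (0.674 to 1.02), a log2 ratio of DAB over DMSO of 0.24 (−0.23 to 0.71). That order turned with the thresholds. With at least 1 UMI of each gene the shares were 0.935% and 0.920%, a ratio of −0.02 (−0.44 to 0.40). With at least 2 UMIs of Ccr7 and no condition on Fscn1 the shares were 1.53% and 0.990%, a log2 ratio of −0.63 (−0.99 to −0.26), and after thinning every barcode to 3000 UMIs with the selection unchanged they were 0.342% and 0.578%, a ratio of 0.76 (0.08 to 1.46). Thinned to 5000 UMIs, the shares were 0.634% and 0.715%, a ratio of 0.17 (−0.42 to 0.77). Gene ratios and list medians after thinning to 3000 UMIs, given below, use the 28 DMSO and 58 DAB cells selected anew on thinned counts. Percentages of members with a UMI after thinning instead use the original members with at least 3000 UMIs.

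Il4i1 and Ccl22 are markers that the selection did not use. The members and their label were chosen with earlier results of these data known. The levels of these markers therefore describe the members and are no independent check of the label. Il4i1 (chr7:44816387-44840809, plus strand) encodes a secreted amino acid oxidase that restrains T cells, and 65 of 68 DMSO members held a UMI of it, as did 87 of 95 DAB members. Ccl22 (chr8:94745590-94751699, plus strand), a chemokine for CCR4-bearing T cells, was found in 67 and 91 of them. After thinning to 3000 UMIs per barcode, which left out no DMSO and 4 DAB members, Ccl22 was seen in 91.2% of DMSO and 80.2% of DAB members. The same share was 6.06% and 2.04% in the MHC class II high cells defined next, and 0.682% and 0.386% in barcodes with at least 2 UMIs of the neutrophil gene Ly6g, which should lack it. Before thinning, the median depth of the Ly6g barcodes was 7341 UMIs in DMSO and 12564 in DAB.

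The members were set beside barcodes with at least 5 UMIs of H2-Aa, no Ccr7, no Fscn1 and no B cell UMI, called MHC class II high cells here. They numbered 892 in DMSO and 790 in DAB. Because the members were chosen by Ccr7 and Fscn1 of the same cells, their levels against these cells are a description only. Of 11619 genes with at least 50 UMIs over these classes, 303 (2.61%) were at least 4-fold higher in the members in both libraries and 230 (1.98%) at least 4-fold lower, and the median log2 ratio over all of them was −0.20 in DMSO and −0.21 in DAB.

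Genes of movement and cell shape are described first. Of 12 genes in that list, 7 were at least 4-fold higher in the members in both libraries, Ccr7 and Fscn1 by choice. Marcksl1, which binds actin and calmodulin, was at 395 CPM in DMSO and 396 CPM in DAB, against 30.6 and 26.4 in MHC class II high cells. Tbc1d4, a regulator of vesicle traffic, was at 199 and 332 CPM against 12.2 and 6.13. Among 9 chemokine genes with enough UMIs, 3 were at least 4-fold higher. Ccl22 was at 2342 and 1018 CPM against 67.4 and 8.39, the T cell attractant Ccl5 was at 927 and 1229 against 44.6 and 3.46, and Cxcl16, the ligand of CXCR6, was at 425 and 564 against 60.5 and 31.3. Ccl17, the other CCR4 ligand, differed between libraries in this respect. It was at 1100 CPM in DMSO members and 1038 in DMSO MHC class II high cells, but at 663 and 127 in DAB.

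Costimulatory genes were at least 4-fold higher in 7 of 14 cases. The maturation antigen Cd83 was at 260 CPM in DMSO members and 290 in DAB members, against 6.87 and 2.55 in the MHC class II high cells, and it was seen after thinning in 45.6% and 58.2% of members. Cd40, the receptor for help from T cells, was at 42.5 and 58.4 CPM against 4.31 and 5.55, and the B7 molecule Cd80 at 122 and 116 against 16.3 and 20.1. The TNF receptor family member Tnfrsf4 (OX40) was at 292 and 210 CPM against 3.76 and 0.96. Of 16 genes that restrain T cells or cytokine signals, 5 were at least 4-fold higher, among them Il4i1, at 1088 and 969 CPM against 139 and 60.1, and the CD200 receptor ligand Cd200, at 58.9 and 83.9 against 1.31 and 0.25. Cd274, which encodes PD-L1, was at 457 and 308 CPM against 159 and 76.4.

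NF-κB genes were at least 4-fold higher in 8 of 18 cases. NF-κB dimers of the alternative pathway, RelB with the p52 product of Nfkb2, are released when the kinase NIK (Map3k14) is stabilised, and they direct much of DC maturation. Relb was at 295 and 335 CPM against 26.2 and 24.9, Nfkb2 at 196 and 172 against 22.5 and 27.7, and Map3k14 at 217 and 227 against 37.5 and 42.1. The adaptor Traf1 was at 343 and 470 CPM against 35.3 and 44.3. The inhibitor Nfkbia, itself a target of the pathway, was at 1111 and 853 against 264 and 192.

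Promoters of these genes were searched on both strands for the κB letters GGGANTTTC or GGGAATTCC in RefSeq windows of 300 bases around each start (GRCm38.p6). They were found in 5 of 22 promoters of the NF-κB list (22.7%), which belong to 3 of 16 genes and overlap at Nfkb2, and in 2 of 8 promoters of the chemokine list (25%), those of Cxcl2 and of Cxcl9, which had 0 UMIs in the members. They were in none of 9 promoters of the costimulation list or 11 of the coinhibition list, in 1 of 17 promoters (5.88%) of the 15 genes furthest above MHC class II high cells, and in 1.33% of all 32851 promoters. A GGGAATTCC can overlap its own reverse complement, and each promoter was counted once. The matched stretches of genes described here are shown with the κB letters in capitals, 5′ to 3′ on the strand of the gene, for 3 NF-κB genes and for Cxcl2, which was found in few members. A match of letters is a description and shows no binding.
Nfkb2, chr19:46304688-46304716, plus strand: ggatcgtcacGGGAATTCCccccctcggg
Nfkbia, chr12:55492742-55492770, minus strand: gctcatcgcaGGGAGTTTCtccgatgaac
Tnip1, chr11:54962979-54963007, minus strand: tccatcatggGGGAATTCCcctcctgcct
Cxcl2, chr5:90903792-90903820, plus strand: cctgagctcaGGGAATTTCcctggtcccc

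MHC genes did not set the members apart in the same way. None of 13 MHC class II genes was at least 4-fold higher and 1, the ubiquitin ligase gene March1, was at least 4-fold lower. The invariant chain gene Cd74 was at 12363 and 11429 CPM in the members against 9910 and 10732 in MHC class II high cells, which were themselves chosen by H2-Aa. H2-Aa was at 5094 and 4772 CPM in the members against 2320 and 2429, while H2-Ab1, its β chain partner, was at 1702 and 1747 against 2211 and 2480. Of 15 MHC class I genes, 1 (H2-Q7) was at least 4-fold higher.

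Lineage genes are described next. In the list of conventional DC genes, 5 of 12 were at least 4-fold higher. In the cDC1 list, 2 of 6 were at least 4-fold higher and 1 at least 4-fold lower. In the list of cDC2 and monocyte-derived DC genes, none of 11 was at least 4-fold higher and 1 was at least 4-fold lower. The transcription factor Irf8, needed for the cDC1 lineage, was at 887 and 832 CPM against 47.2 and 17.7 in MHC class II high cells, its partner Batf3 at 269 and 217 against 57.8 and 24.6, and Stat4, the transducer of IL-12 signals, at 268 and 250 against 11.0 and 16.0. The ETS factor Spib was at 41.8 and 40.7 CPM against 0.327 and 0.709. Zbtb46, a factor restricted to conventional DC and their precursors among immune cells, was at 53.0 and 51.1 CPM against 11.7 and 24.1. Several subset markers were missing, while others of the same lists were present: Xcr1, Clec9a, Cadm1 and Tlr3 of cDC1, Cd209a and Clec4a1 of cDC2 or monocyte-derived DC, Cd207 of Langerhans cells, and Siglech, Klk1 and Ly6d of plasmacytoid DC had 0 UMIs in all 163 members. The mannose receptor Mrc1, the complement gene C1qa and Ms4a7 of macrophages were also at 0. The plasmacytoid list gene Bst2, an interferon-induced membrane protein, was present in 62 DMSO members and 88 DAB members, and Cdh1 (E-cadherin) of the Langerhans list in 19 and 29. Of the macrophage list, Cd68 was present in 39 and 27 members, at 70.1 and 36.0 CPM against 261 and 82.6 in MHC class II high cells, and Adgre1 (F4/80) in 31 and 20. Mgl2, a lectin of monocyte-derived DC, was lower than in MHC class II high cells, at 225 and 310 CPM against 1569 and 872. The 6 B cell genes that the selection did not set to 0 summed to 0.746 and 2.09 CPM and T or NK cell genes to 2.98 and 0.521 CPM. The label of activated DC was given with the selection, and no resting subset was named from these lists.

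**Figure D2:**
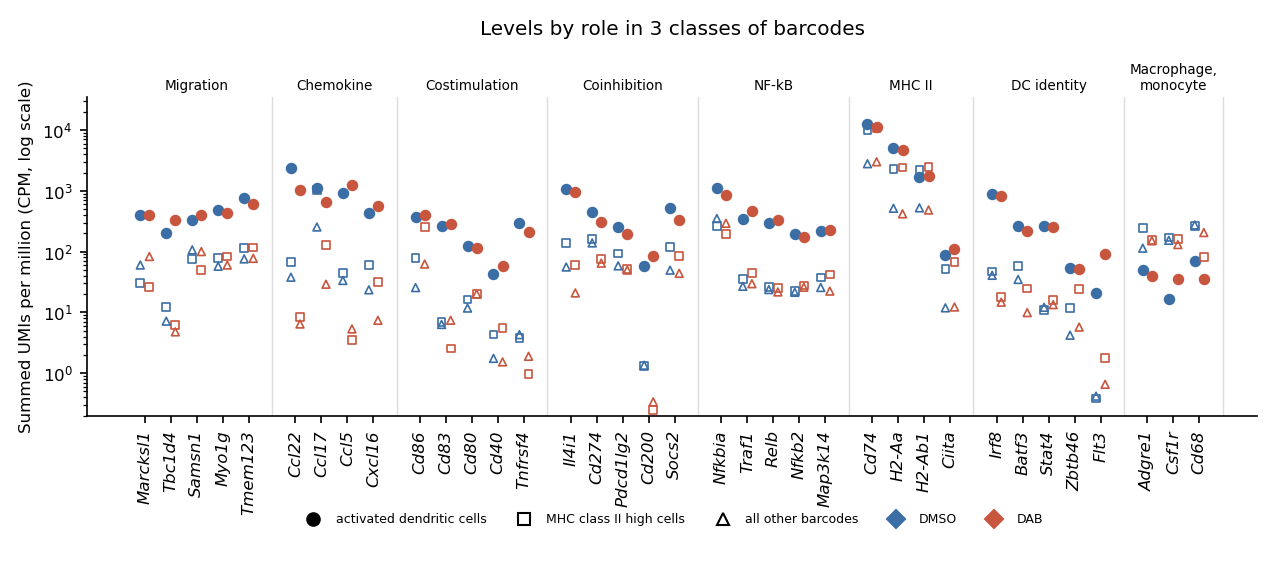
Summed CPM (log scale) of genes grouped by role, in activated DC (filled circles), MHC class II high cells (open squares) and all other barcodes (open triangles), DMSO in blue and DAB in red. Each plotted NF-κB, costimulatory and chemokine gene lay higher in the members than in both other classes in each library, whereas H2-Ab1 lay lower in the members than in MHC class II high cells.

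Beside Ccr7 and Fscn1, the 15 genes furthest above MHC class II high cells, by the smaller ratio over the libraries, were Pdlim4, Tcf7, Plek2, Arc, Slc4a8, Nudt17, Dpysl5, Cd70, Cacnb3, Adcy6, Cldn10, Apol7c, Lad1, Serpinb6b and Tmem150c. The serpin Serpinb6b was at 431 and 454 CPM in the members against 1.96 and 4.13, a log2 ratio of 7.78 in DMSO and 6.78 in DAB. The calcium channel subunit gene Cacnb3 was at 269 and 246 CPM against 1.80 and 0.876, a log2 ratio of 7.23 and 8.13. Pdlim4, a LIM domain protein of the actin cytoskeleton, was at 58.9 and 120 CPM, while the MHC class II high cells held 1 UMI of it in DMSO and 4 in DAB, which gave a log2 ratio of 10.08 (7.56 to 15.40) and 9.49 (8.12 to 11.38). Cd70, the ligand of CD27 on T cells, was at 24.6 and 18.8 CPM. Tcf7, best known from T cells, was at 36.6 and 53.7 CPM. At the other end, the 10 genes furthest below were Ccnb1, Cenpe, Cenpf, Prc1, Anln, Ptx3, Hist1h1b, Dusp7, Kif23 and Myl10, most of them genes of mitosis. In the proliferation list, 7 of 17 genes were at least 4-fold lower and none at least 4-fold higher.

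DAB and DMSO were then compared within the members, as the log2 ratio of summed CPM of 95 DAB cells over 68 DMSO cells. Of 5811 genes with at least 50 member UMIs, 195 (3.36%) were at least 2-fold higher in DAB and 140 (2.41%) at least 2-fold lower, with a median of −0.04. With a minimum of 20 UMIs, which was used for gene lists, 5.49% of 8384 genes were at least 2-fold higher and 4.32% at least 2-fold lower, with a median of −0.03. None of 10 genes of migration and cell shape beside Ccr7 and Fscn1, 14 of costimulation, 18 of NF-κB, 13 of MHC class II, 15 of MHC class I or 15 of glycolysis passed 2-fold in either direction, and their medians were 0.15, −0.04, 0.05, −0.07, 0.02 and 0.04. Cd86 was at 374 and 399 CPM, a ratio of 0.10, although the same gene was higher in DAB by 1.73 in MHC class II high cells. Irf8 was also near even in the members.

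**Figure D3:**
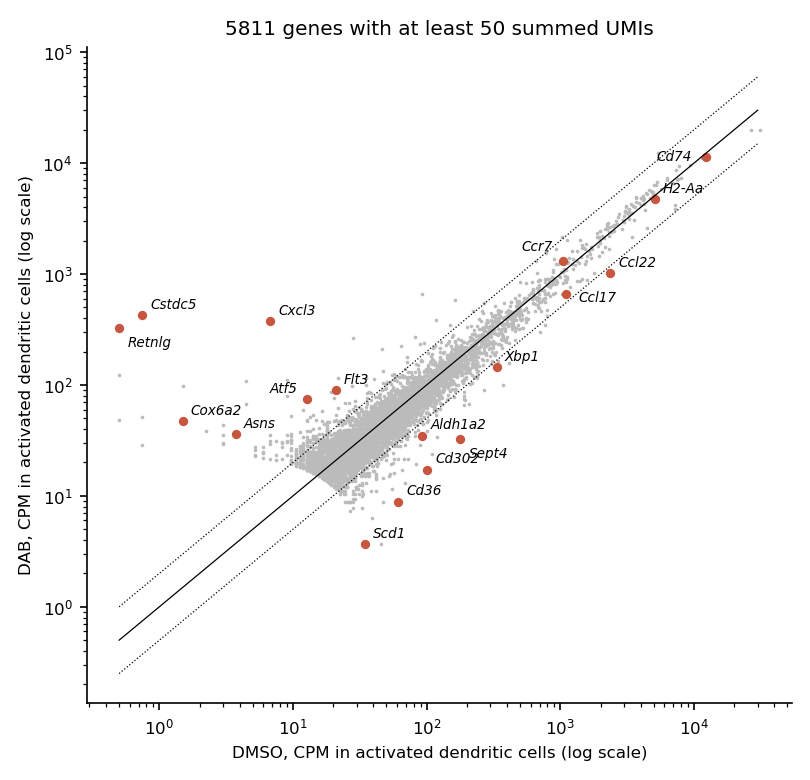
Summed CPM of 5811 genes in activated DC of the DMSO library (horizontal, log scale) and the DAB library (vertical, log scale), with values below 0.5 CPM drawn at 0.5. The solid line marks equal levels, the dotted lines mark 2-fold, and 18 genes named in the text are labelled.

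Of the chemokines Ccl22, Ccl17, Ccl5 and Cxcl16, only Ccl22 was at least 2-fold apart between the libraries as summed over members. Ccl22 ran per cell from 0 to 10220 CPM in DMSO, with a median of 1468, and from 0 to 5778 in DAB, with a median of 738. Summed over cells it was at 2342 and 1018 CPM, a ratio of −1.20 (−1.28 to −1.12), and −0.98 as a mean that weights cells equally. Ccl17 (chr8:94810453-94812036, plus strand) ran from 0 to 7838 CPM in DMSO, with a median of 489, and from 0 to 4749 in DAB, with a median of 265, for a summed ratio of −0.73 (−0.84 to −0.62). The ranges overlapped for both genes, with the DAB median below the DMSO median. Ccl5 (chr11:83525778-83530518, minus strand) was found in 43 of 68 and 55 of 95 members and ran from 0 to 25168 CPM in DMSO, with a median of 110, and from 0 to 36252 in DAB, with a median of 83.2. Its summed ratio was 0.41 (0.31 to 0.51), but its medians stood in the opposite order, and the ratio was −0.00 when 3 UMIs of Ccr7 and Fscn1 were required. Cxcl16 had a ratio of 0.41 (0.26 to 0.56).

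Over the chemokine list, 8 of 12 genes had at least 20 UMIs, with a median of 0.41, 2 at least 2-fold higher and 1 (Ccl22) at least 2-fold lower. The 2 higher genes rested on few cells. Ccl4 was found in 6 DMSO and 8 DAB members, with 85.4% of its DAB UMIs in 1 cell, and Cxcl2 in 3 DMSO and 18 DAB members. The list median was −0.17 without the doublet calls and −0.04 without the members rich in granulocyte genes. Of 9 cytokine genes, 2 were at least 2-fold higher and none at least 2-fold lower, with a median of 0.29 (−0.08 with a minimum of 50 UMIs): Il12b, the shared subunit of IL-12 and IL-23, had 5 UMIs in DMSO and 32 in DAB, and Tnf had 5 and 17, a ratio of 1.25 (−0.25 to 3.04).

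**Figure D4:**
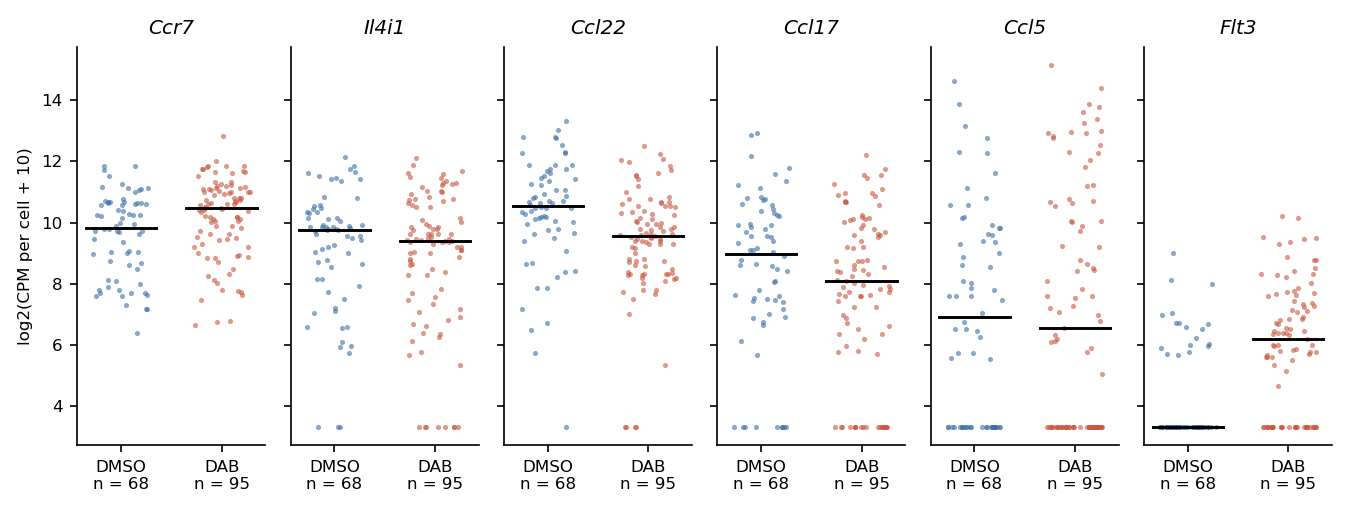
log2(CPM + 10) of 6 genes in each of the 68 DMSO members (blue) and 95 DAB members (red), where points are cells and black bars are medians. Ccr7 and Il4i1 overlapped broadly, the DAB median of Ccl22 lay below that of DMSO, and the DMSO median of Flt3 lay at the base, where cells have no UMI.

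Flt3 (chr5:147330741-147400489, minus strand), the receptor for the cytokine that sustains conventional DC and their precursors, had the largest ratio of DAB over DMSO in the list of conventional DC genes. It was found in 18 of 68 DMSO members, or 26.5% (16.5 to 38.6), and in 66 of 95 DAB members, or 69.5% (59.2 to 78.5). Per cell it ran from 0 to 503 CPM in DMSO, with a median of 0, and from 0 to 1190 in DAB, with a median of 62.8. The summed levels were 20.9 and 90.2 CPM, a ratio of 2.11 (1.53 to 2.74). After thinning to 3000 UMIs it was seen in 5.88% and 28.6% of members, against 0.062% and 0.231% of Ly6g barcodes. The ratio was 2.23 in MHC class II high cells too. Dpp4 (CD26), a peptidase found on cDC1 and on migrating DC, was at 46.3 and 89.2 CPM, a ratio of 0.95 (0.52 to 1.39). Itgax, which encodes the integrin CD11c, was lower in DAB, at 82.1 and 34.9 CPM and a ratio of −1.23 (−1.69 to −0.78). In the list of conventional DC genes, 1 of 11 was at least 2-fold higher (Flt3) and 1 at least 2-fold lower (Itgax), with a median of −0.05 (0.77 after thinning to 3000 UMIs).

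The chemokines were also set out by whether a member held a Flt3 UMI, a split chosen after its values were seen. Since Flt3 itself differed between the libraries, the sides hold differently selected cells in each, 18 and 50 in DMSO and 66 and 29 in DAB, and levels are given within a library only. In DMSO members, Ccl17 was at 334 CPM with Flt3 and 1317 without, and in DAB members at 431 and 1234. Ccl22 was at 1284 CPM with Flt3 and 2642 without in DMSO, and at 711 and 1777 in DAB. As summed, both CCR4 ligands were thus lower in the Flt3-bearing members of each library. Per cell, the Spearman correlation of Flt3 with Ccl17 was −0.38 in DMSO and −0.42 in DAB. With Ccl22 it was −0.37 and −0.18 (Pearson −0.22 and −0.03). Ccl5 had no such shared order, at 1243 CPM with Flt3 and 837 without in DMSO, and at 715 and 2496 in DAB. The median depth was 17152 UMIs with Flt3 and 20251.5 without in DMSO, and 18890 and 19402 in DAB.

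Of 15 genes that restrain T cells, 2 were at least 2-fold lower in DAB and none at least 2-fold higher, with a median of −0.44. The retinal dehydrogenase Aldh1a2, which makes the retinoic acid that turns T cells toward regulatory and gut-homing fates, was present in 35 DMSO members but 11 DAB members, at 92.5 and 34.9 CPM, a ratio of −1.40 (−1.86 to −0.96). By the split above, Aldh1a2 was at 13.5 CPM with Flt3 (4 UMIs) and 115 without in DMSO. In DAB it was at 1.47 CPM with Flt3 (2 UMIs) and 117 without. A single DAB cell, which carried a doublet mark and no Flt3 UMI, held 53.7% of its DAB UMIs. Without the highest cell of each library the ratio was −2.29. The death receptor Fas had a ratio of −1.04 (−1.64 to −0.46). Cd274 was lower by 0.57 on the log2 scale (95% interval of the ratio −0.74 to −0.40) and Il4i1 stood at −0.17 (−0.27 to −0.07), so both stayed within 2-fold.

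Among genes with at least 50 member UMIs, an interval without 0 and a UMI in at least 10 members of the higher library, the 10 furthest down in DAB were Scd1, Cd36, Cd302, Sept4, Plk2, Lap3, Myof, Hmox1, Rai14 and Anpep. The desaturase Scd1, which makes monounsaturated fatty acids, stood at 34.3 CPM in the DMSO members and 3.65 in the DAB members, a ratio of −3.23 (−4.63 to −2.08). After thinning to 3000 UMIs per barcode the ratio was −1.47, over the 28 DMSO and 58 DAB cells that the selection then kept. The fatty acid and oxidised lipid receptor Cd36 was at 61.2 and 8.86 CPM, a ratio of −2.79 (−3.63 to −2.02). Both handle lipid. The lectin receptor Cd302 was at 101 and 17.2 CPM (−2.55, −3.14 to −1.99) and the septin gene Sept4 at 178 and 32.3 (−2.46, −2.89 to −2.06). Haem oxygenase gene Hmox1 had a ratio of −2.20, with 48.6% of its DMSO UMIs in 1 cell. That ratio was −1.26 with at least 3 UMIs of Ccr7 and of Fscn1, and −3.09 without the members rich in granulocyte genes. Among 9 antigen uptake receptors none was at least 2-fold higher and 2 were at least 2-fold lower, Cd36 and the phosphatidylserine receptor kinase Axl, with a median of −0.26 and with Marco, Mrc1 and Cd209a at 0. Without doublet calls 3 of 6 were at least 2-fold lower, with a median of −1.18.

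At the upper end, by the same limits, the 10 genes were Cstdc5, Retnlg, Retnla, Ly6a, Cxcl3, Stfa2, Uchl1, Cox6a2, Stfa2l1 and Stfa3, and some of them, such as Retnlg, are genes of granulocytes. Retnlg, a resistin-like gene of neutrophils, had no UMI in DMSO members and 629 in DAB members, which is at least 147-fold higher against a floor of 3 counts over the group. Of these, 96.2% lay in the 8 DAB members with over 1% granulocyte UMIs. The stefin gene Stfa2 had 0 and 236 UMIs and Cstdc5 had 1 and 815, of which those 8 members held 36.9% and 23.2%. With doublet calls left out, 13 UMIs of Cstdc5, 22 of Stfa2 and 8 of Retnlg remained in both libraries together. The log2 ratio was then 3.25 for Cstdc5 and 2.54 for Stfa2, the latter against the floor. After thinning to 3000 UMIs per barcode these ratios were 1.27 and 0.17. Over the granulocyte list, 6 of 11 genes were at least 2-fold higher and 1 at least 2-fold lower, with a median of 1.06, whereas without doublet calls none of 6 was at least 2-fold higher and the median was 0.38. The list summed to 2239 and 4182 CPM, against 47227 and 40098 in all other barcodes. S100a8, an alarmin subunit and the most abundant of these genes in DAB, was at 776 and 1614 CPM, with 85.6% of its DMSO UMIs and 90.5% of its DAB UMIs in the 3 and 8 members rich in granulocyte genes. The part of these cells in the result was not tested beyond leaving them out: the log2 ratio was then 2.63 for Retnlg and 5.27 for Stfa2, both computed against the same floor, and 8.92 for Cstdc5, and 143 of the 195 genes at least 2-fold higher and 113 of the 140 at least 2-fold lower kept their call.

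Other upper genes have roles outside granulocytes. Cox6a2, a subunit of cytochrome c oxidase usual in muscle, was found in 2 DMSO and 25 DAB members, at 1.49 and 46.9 CPM, a ratio of 4.97 (3.08 to 8.04) that was 5.11 in MHC class II high cells and 3.67 in the members without doublet calls. Uchl1, a ubiquitin hydrolase, was found in 1 and 19 members, 38.4-fold higher in DAB (log2 ratio 5.26, 2.73 to 10.59), or 10.6-fold without doublet calls. Apol7c, an apolipoprotein L gene of DC that also stood among the genes furthest above MHC class II high cells, was at 20.1 and 75.6 CPM, a ratio of 1.91 (1.31 to 2.56). Its cells were few, 6 in DMSO and 21 in DAB.

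The amino acid response is the set of genes that cells switch on through the kinase GCN2 and the factor ATF4 when amino acids run short, among them synthetases, transporters and enzymes of serine and asparagine synthesis. In the members, 7 of 27 such genes were at least 2-fold higher in DAB and 2 at least 2-fold lower, with a median of 0.59, and 21 of 27 had a ratio above 0. Without the doublet calls, 4 of 26 were at least 2-fold higher and 2 at least 2-fold lower, with a median of 0.33 (−0.11 to 0.67), and Trib3 turned to −0.33. Asns and Atf5 then stood at 3.84 and 2.61. For Asns this left out a DMSO cell with 3 UMIs and DAB cells with up to 8. The DMSO cells that still held Asns had 1 UMI each. Atf5, a factor translated like ATF4 under stress, was present in 15 of 68 DMSO members and 54 of 95 DAB members, with medians of 0 and 40.9 CPM per cell and summed levels of 12.7 and 75.1 CPM, a ratio of 2.57 (1.84 to 3.38). Asparagine synthetase (Asns) was at 3.73 and 36.0 CPM (3.27, 1.98 to 4.94), in 3 and 21 members. The amino acid transporter Slc7a5 had a ratio of 1.48 (0.92 to 2.08), and Trib3, Phgdh, Stc2 and Nupr1 were also past 2-fold. The mitochondrial folate enzyme Mthfd2, the most abundant of the list in DAB, was higher by 0.56 (0.32 to 0.81), within 2-fold. Not every gene of the list went that way: the stress factor Atf3 was at 64.9 and 17.2 CPM (−1.92, −2.54 to −1.32) and the proline enzyme Aldh18a1 at 25.4 and 12 (−1.08, −1.91 to −0.28). The list median was 1.14 in MHC class II high cells and 1.20 in all other barcodes, and whether these differ from that of the members was not tested.

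ATF4 with C/EBP partners binds composite elements of the form TGATGNAA. These letters were found, on either strand, in 11 of 35 promoters of the list (31.4%) and in 3.97% of all promoters. The stretches of genes above are shown with the matched letters in capitals, 5′ to 3′ on the strand of the gene, because members of the list with the match lay on both sides of 0: Asns, Trib3 and Nupr1 were higher in DAB and Atf3 was lower. The last 3 hold the letters in reverse complement.
Asns, chr6:7693215-7693242, minus strand: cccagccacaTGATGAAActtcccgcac
Trib3, chr2:152344029-152344056, minus strand: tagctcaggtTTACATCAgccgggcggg
Nupr1, chr7:126625563-126625590, minus strand: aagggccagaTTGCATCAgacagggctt
Atf3, chr1:191183426-191183453, minus strand: cttctcgcacTTGCATCAccaagtccgc

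Other programs are given list by list. Of 18 genes of the unfolded protein response, 1 was at least 2-fold higher (Sdf2l1) and 1 at least 2-fold lower, with a median of 0.12. The lower gene was Xbp1, the spliced transcription factor of the IRE1 branch, at 334 and 144 CPM (−1.21, −1.43 to −0.99). Of 11 genes that follow ERK activity, 3 were at least 2-fold higher and none at least 2-fold lower, with a median of 0.61: cyclin D1 (Ccnd1) at 11.9 and 60.0 CPM (2.33, 1.57 to 3.18), the ETS factor Etv5 (1.76, 0.46 to 3.31) and Myc (1.18, −0.00 to 2.54). Of 9 interferon response genes, 2 were at least 2-fold lower, Stat2 (−1.77) and Zbp1 (−1.36), with a median of −0.26 that was 0.35 as a mean over cells. Of 11 proliferation genes, 4 were at least 2-fold lower, among them Top2a at 23.1 and 3.65 CPM in 8 and 7 cells. None of the 11 had a ratio above 0, and the median was −0.78. With 1 UMI of Ccr7 and of Fscn1 required, 2 of 15 were at least 2-fold higher and none at least 2-fold lower, with a median of 0.11.

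Genes of other myeloid cells went in both directions. Of 10 monocyte genes, 4 were at least 2-fold higher and 3 at least 2-fold lower, with a median of 0.73. The lower ones included the lipase Lpl (207 and 66.7 CPM, −1.64) and the chitinase-like Chil3 (−1.39), and the higher ones included Spp1 (osteopontin), at 268 and 547 CPM in 22 and 35 cells (1.03). Of 5 macrophage genes 1 was at least 2-fold lower, Apoe, found in 3 members of each library, with a median of −0.79, and without doublet calls 4 were at least 2-fold lower, with a median of −1.75. Of 9 genes of cDC2 or monocyte-derived DC 3 were at least 2-fold higher (Clec4a2, Itgam and Cd300a), with a median of 0.47 (−0.52 over 3 genes after thinning), and of 6 cDC1 genes 1 was at least 2-fold higher (Wdfy4), with a median of −0.20. Epcam of the Langerhans list was at least 2-fold lower (−1.07), neither of 2 plasmacytoid genes passed 2-fold, and Gata2 of the basophil and mast cell list was at least 2-fold lower. No B cell, T cell or NK cell gene reached 20 UMIs.

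Set beside the same comparison in other cells of the cultures, several ratios of the activated DC were smaller in size or opposite in sign. Ccl5 had a ratio of −3.69 in MHC class II high cells and −2.65 in all other barcodes, against 0.41 in the members. With at least 3 UMIs of Ccr7 and of Fscn1 required, Ccl5 was at 1101 CPM in DMSO members and 1098 in DAB members. Ccl17 was lower by 3.03 and 3.13 on the log2 scale in those classes, against 0.73 in the members, and Ccl22 by 3.01 and 2.56, against 1.20. All other barcodes include the Fscn1-negative set with Ccr7, 64 barcodes in DMSO and 15 in DAB. That set held 1804 and 268 UMIs of Ccl17, and 1771 and 275 of Ccl22. For Il4i1 the values were −1.21 and −1.41, against −0.17, and Cxcl16 stood at −0.95 and −1.67, against 0.41. Over the chemokine list the median was −1.59 in MHC class II high cells, −0.66 in other barcodes and 0.41 in the members (−0.17 without doublet calls and −0.04 without members rich in granulocyte genes), and over the coinhibition list it was −1.21, −0.66 and −0.44. Other genes were alike in size in the members and in MHC class II high cells, such as Flt3 (2.11 and 2.23), Sept4 (−2.46 and −2.55) and Atf5 (2.57 and 2.35). None of these differences between classes was tested, since 1 library per condition gives no replicate for it.

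**Figure D5:**
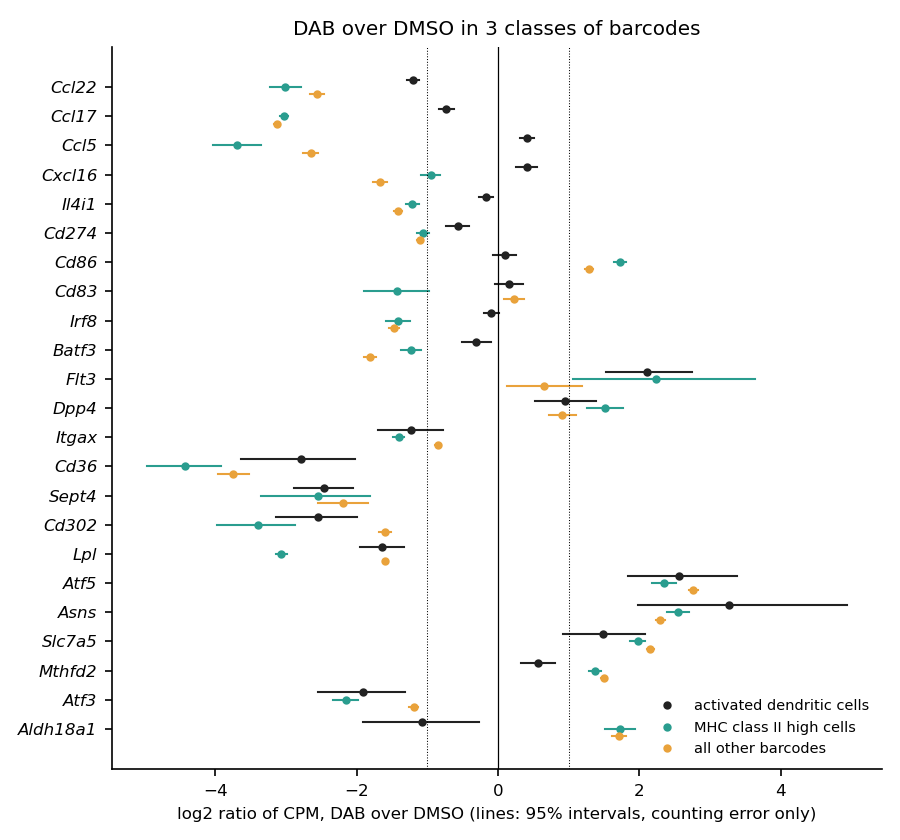
log2 ratio of summed CPM, DAB over DMSO, for 23 genes in activated DC (black), MHC class II high cells (green) and all other barcodes (orange), where lines are 95% intervals that cover counting error only and dotted lines mark 2-fold. For Ccl22, Ccl17, Ccl5, Cxcl16 and Il4i1 the green and orange points lie left of the black ones, and for Flt3 and Sept4 the black and green points nearly coincide.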

How the data were processed

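The deposited matrices hold raw UMI counts per gene and barcode for both libraries, made by the authors with Cell Ranger 7.0.0 against mm10 (the submitters' processing notes also name Seurat 4.3.0 and R 4.1.2). They were not normalized, and barcodes above the mitochondrial limit are still in them. Total UMI counts were 106792967 in 9855 DMSO barcodes and 165506902 in 11631 DAB barcodes. Barcodes under 1000 UMIs (199 and 147) or over 10% mitochondrial UMIs (55 and 89) were left out. Doublet calls, from distances to simulated pairs in 30 principal components of 2000 genes, were kept and left out as an alternative.

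Counts were summed over the members of each library and divided by their total (CPM). Ratios carry exact conditional binomial intervals, shares Clopper-Pearson intervals, and a side at 0 was set at 3 counts. This was done with Python 3.11.15, numpy 2.4.6, scipy 1.17.1, pandas 2.3.3 and scikit-learn 1.9.0, and checked on simulated counts. The study compared libraries cell by cell, which takes cells as replicates, so no such test was run. The 26 gene lists hold 357 genes, 354 of them in the files. Coordinates came from GENCODE M21, which held 32158 of 32285 gene IDs. Members and lists were chosen with earlier results of these data known. Genes named outside the lists were the 10 with the largest ratio in each direction among those with at least 50 UMIs, an interval without 0 and a UMI in at least 10 members of the higher library, and the 15 furthest above (Ccr7 and Fscn1 set aside) and 10 furthest below MHC class II high cells. Alternatives changed the UMI thresholds, doublets, depth, scaling and the gene minimum. Promoters on chromosome 18 were not searched. Neighbouring genes that share reads were not told apart.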

Additional observations from a re-analysis of the deposited data

Results flagged for a closer look

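Of the genes named by list or size with at least 50 member UMIs, 5 were at least 2-fold apart between DAB and DMSO in opposite directions in the activated DC and in all other barcodes, in each case with an untested difference. Gata2 had a log2 ratio of DAB over DMSO of −1.69 in the members and 1.28 in other barcodes, with 47.6% of its DMSO member UMIs in 1 cell. Aldh18a1, an enzyme of proline synthesis, stood at −1.08 in the members and 1.71 in other barcodes, where it went with the rest of the amino acid response. Mmp12 was at 1.33 and −1.08, with 75.8% of its DMSO member UMIs in 1 cell. The granule genes Ngp (1.12 and −1.80) and Ltf (1.71 and −1.80) also rested on single cells, which held 85.7% and 92.3% of their DMSO UMIs.

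Barcodes that met the Ccr7 and Fscn1 thresholds but held a B cell UMI were outside the members. There were 5 in DAB and 1 in DMSO. Each held 1 or 2 UMIs of Cd79b and none of Cd79a or Ms4a1, and none carried a doublet mark. In DAB they held 149 UMIs of Ccl22, 86 of Il4i1 and 355 of H2-Aa.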

How the results depend on the processing

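No paired analysis was possible because each condition is 1 library. Of the main values set against alternatives, 250 moved by less than the limit set for them and 24 by more. The DMSO share was 0.935% with 1 UMI of each gene and 1.53% with no Fscn1 condition (log2 ratio −0.63, chosen after seeing the data). Thinning to 3000 UMIs gave shares of 0.342% and 0.578% (log2 ratio 0.76), 25 higher and 15 lower genes, and list medians of 0.23 for NF-κB, 1.82 for monocyte, 0.11 for granulocyte and −0.079 for unfolded protein response genes. The last was −0.084 as a mean over cells. Proliferation genes had a median of 0.11 with 1 UMI of each gene, and glycolysis genes 0.50 with 3 UMIs. The DAB over DMSO calls numbered 460 higher and 362 lower at a minimum of 20 UMIs, and 84 and 63 at 100. Over MHC class II high cells, 150 genes were lower after median-of-ratios scaling, 372 were lower without doublet calls, 169 were higher at a minimum of 200 UMIs, and 1304 were higher and 521 lower against all other barcodes. Reversed values of single genes named by size were Retnla at −0.31 after thinning, and Stfa2l1 at −0.33 without doublet calls and −0.051 after thinning. A side at 0 was set at 3 counts in these as well, which at low counts can by itself turn the sign. Of 206 list medians under alternatives, 27 in 12 of 21 lists had the opposite sign to the main median. Among lists with a main median beyond 0.2 in size these were chemokines (−0.17 without doublet calls, −0.040 without granulocyte-rich members), cytokines (−0.078 at a minimum of 50 UMIs), cDC2 genes (−0.52 thinned), interferon genes (0.19 with 1 UMI, 0.20 without granulocyte-rich members, 0.35 as a mean over cells, 0.11 at 50 UMIs) and proliferation genes (above), and conventional DC genes, at −0.05, stood at 0.77 thinned. The cause was not tested. Retnlg had a log2 ratio of 1.08 without doublet calls, computed against the floor, and Ccl6, just under 2-fold higher as summed, had a log2 ratio of −0.74 without them. With doublet calls left out, 118 of the 195 higher and 100 of the 140 lower genes kept their call. Depth limits genes under about 20 UMIs in 163 cells, for which ratios carry intervals of more than 2-fold. Genes above that number can have intervals as wide, as Tnf, Asns, Scd1, Fas and Myc did.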
